A study of Mus musculus with 6 samples.

Results

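The 10 genes described here encode receptors of the common gamma chain cytokines and the proteins that carry their signal inside the cell. They are the receptor genes Il2ra, Il2rb, Il2rg, Il4ra, Il7r and Il21r, the Janus kinase genes Jak1 and Jak3, and the transcription factor genes Stat5a and Stat5b. They were chosen by symbol, as the rows carrying those names among the 13185 gene rows of the deposited table. All 10 were found, and all 10 were among the 12554 genes tested, those with a mean of at least 0 log2 CPM (read counts per 1000000) over the 6 libraries. The cells came from a mouse T-ALL (T-cell acute lymphoblastic leukaemia) driven by Notch1, a receptor that directs the T cell lineage. Treated and untreated cells alike were kept on antibody to CD3 fixed to the plate at 2.5 ug/mL, and IL-2, a ligand of several of the receptors described here, was in the medium of both groups at 100 U/mL. One group of 3 libraries received panobinostat, an inhibitor of histone deacetylases, at 25 nM for 2 h, and the other group of 3 libraries was left untreated for the same time. Libraries were made from 100 ng of total RNA with a QuantSeq kit, which reads transcripts near their polyadenylated end. The strain, the age of the mice, how Notch1 was activated and whether the cells were a line, a clone or a pool of animals could not be learned from the labels.

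The common gamma chain, the product of Il2rg, is a subunit shared by the receptors for IL-2, IL-4, IL-7, IL-9, IL-15 and IL-21, each of which adds 1 or more chains of its own. The kinase JAK1 sits on the cytokine-specific chain and JAK3 on the gamma chain, and when a ligand joins the chains the kinases phosphorylate STAT proteins, of which STAT5A and STAT5B are the principal ones for IL-2 and IL-7. In T cells these signals support survival and division, and gain-of-function mutations of the IL-7 receptor, JAK1, JAK3 and STAT5B are known from human T-ALL.

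Nothing in the labels ties the 3 libraries of a group to separate cultures or animals, and p-values may therefore reflect technical spread alone. Depth was estimated from the steps between distinct low values and came to between 6010000 and 7740000 reads per library. On the first principal component, which held 54.7% of the variance, the treated libraries lay between 35.4 and 43.2. Untreated library 1 lay at -25.7, nearer to them than untreated libraries 2 and 3 at -48.0 and -41.0, so values without it are given below. T cell markers were high, with Trbc2, the constant region of the T cell receptor beta chain, at a mean of 9.70 log2 CPM. Markers of other lineages were also detected, with the neutrophil gene S100a8 at a mean of 9.71 and the haemoglobin gene Hba-a1 at 11.1 log2 CPM.

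The 3 genes with the largest differences among the 10 were the receptor genes Il7r, Il2ra and Il21r, and their promoter windows are shown so that the values below can be read beside the sequence. Each is the 250 bases before the transcription start in RefSeq (GRCm38.p6), written 5′ to 3′ on the strand of the gene, with capitals marking matches to the motifs searched. They lie at chr15:9529877-9530126 on the minus strand for Il7r, chr2:11642542-11642791 on the plus strand for Il2ra and chr7:125603179-125603428 on the plus strand for Il21r.
Il7r: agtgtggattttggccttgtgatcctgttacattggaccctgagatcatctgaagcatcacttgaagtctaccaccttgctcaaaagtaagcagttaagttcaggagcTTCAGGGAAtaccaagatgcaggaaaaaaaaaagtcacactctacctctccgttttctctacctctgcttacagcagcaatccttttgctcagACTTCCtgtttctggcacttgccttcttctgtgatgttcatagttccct
Il2ra: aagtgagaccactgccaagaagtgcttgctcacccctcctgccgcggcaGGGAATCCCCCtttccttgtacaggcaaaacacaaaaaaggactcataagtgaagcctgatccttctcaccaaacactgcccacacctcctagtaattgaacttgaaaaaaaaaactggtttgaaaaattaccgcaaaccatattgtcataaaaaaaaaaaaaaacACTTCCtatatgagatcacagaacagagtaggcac
Il21r: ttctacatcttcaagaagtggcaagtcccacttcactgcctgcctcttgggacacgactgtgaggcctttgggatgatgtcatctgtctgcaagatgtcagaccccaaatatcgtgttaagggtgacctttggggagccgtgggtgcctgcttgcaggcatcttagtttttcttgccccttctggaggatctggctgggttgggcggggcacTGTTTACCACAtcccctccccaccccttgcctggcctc

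The motifs searched on both strands were TTCNNNGAA for STAT proteins, GGAAGT for ETS proteins, GTAAACA for forkhead proteins, TGTGGT for RUNX proteins and the kappa B motif of NF-kappa B. Of 32536 RefSeq windows of this length, 7.04% held the STAT motif, 19.8% the ETS motif, 3.17% the forkhead motif, 14% the RUNX motif and 7.28% the kappa B motif. The Il7r window held a STAT match, TTCAGGGAA, from 142 to 134 bases before the start and an ETS match from 49 to 44 bases before it. In GENCODE, used below for gene positions, Il7r starts at 9530176 on the minus strand, so this window and both matches lie inside the gene. The Il2ra and Il21r windows end before the GENCODE starts of those genes. The Il2ra window held an overlapping pair of kappa B matches between 201 and 191 bases before the start and an ETS match from 35 to 30 bases before it. The Il21r window held a forkhead match from 38 to 32 bases before the start, and a RUNX match that overlapped it, from 33 to 28. These matches are letters in a window, and no binding was measured. Windows were found for 9 of the 10 genes, Il2rb being the one without, and the Il2rg window held a RUNX match. Stat5a and Stat5b have 2 windows each. One Stat5a window held an ETS match and the other a kappa B match, one Stat5b window held an ETS match and the other no match, and the windows of Il4ra, Jak1 and Jak3 held none of these motifs. CG pairs were few in the windows of the genes that fell, with 1 for Il7r, 3 for Il2ra and 4 for Il21r, and the median over all windows was 6. Il2rg, which did not pass the threshold, also had 3, while Jak3 had 8, Il4ra 17 and Jak1 19. The 2 windows of Stat5a, the gene that rose, had 5 and 21, and those of Stat5b 5 and 40. Only 68.2% of the tested genes had a window by symbol, under the 80% needed to compare CG content with change over all genes, so that comparison is void.

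Of the 10 genes, 3 fell and 1 rose in treated cells (limma, Benjamini-Hochberg adjusted p below 0.05 over all 12554 genes). Over all tested genes 19.0% fell and 19.2% rose, so counts of this size are no result about the 10 genes as a set. All 3 genes that fell did so by at least 2-fold, a size reached by 5.15% of tested genes in that direction. Treated and untreated libraries were fully separated for 6 of the 10 genes, 5 of them lower after treatment and 1 higher, where 25.7% of all tested genes were lower without overlap and 25.7% were higher without overlap. Without treated library 3 the number of all genes that rose was 1587 in place of 2416. The median log2 fold change was -0.20 for the 10 genes and -0.0052 for all tested genes. In bulk RNA, fewer cells that express a gene and less RNA of it per cell cannot be told apart, which touches every value below.

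**Figure D1:**
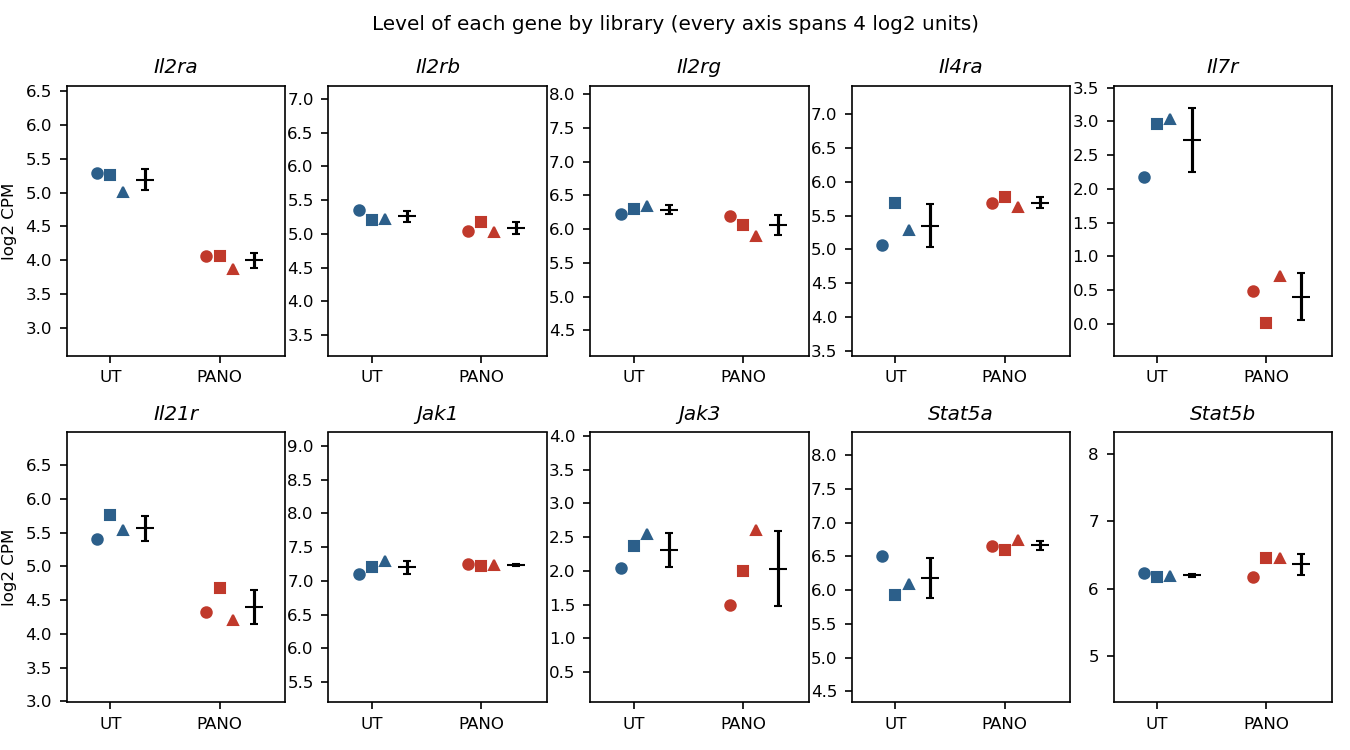
Level of each of the 10 genes in log2 CPM in the 3 untreated (UT, blue) and 3 panobinostat-treated (PANO, red) libraries; circles, squares and triangles are libraries 1, 2 and 3, and bars are the mean ± SD. Every vertical axis spans 4 log2 units at its own level, so the size of a difference can be compared across panels. The groups lie apart for Il2ra, Il7r and Il21r, while for Jak1, Jak3, Il4ra and Stat5b they overlap.

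Il7r encodes the alpha chain of the IL-7 receptor (CD127), which binds IL-7 and, with another partner, TSLP, and is needed for the growth of early T cells. Its level was 2.17, 2.97 and 3.03 log2 CPM in untreated libraries 1 to 3 and 0.48, 0.02 and 0.71 log2 CPM in treated libraries 1 to 3. Every treated library was lower than every untreated one, and the lowest untreated library, the first, was still 1.46 log2 units above the highest treated library. The mean fell from 2.72 ± 0.48 to 0.40 ± 0.35 log2 CPM (SD, n = 3 each), a log2 fold change of -2.32 ± 0.33 (SE) with a 95% interval of -3.07 to -1.57 and an adjusted p of 0.00185. On the linear scale this was 4.99-fold lower, and only 28 of the 12554 tested genes had a lower log2 fold change. The gene (chr15, 9505788 to 9530176, minus strand, mm10) was thinly covered, with an estimated 36, 50 and 53 reads in the untreated and 8, 6 and 12 reads in the treated libraries. Summed over libraries, 139 reads (exact Poisson 95% interval 117 to 164) stood against 26 (17 to 38.1), and these intervals cover counting error only, since PCR copies of a molecule may have been counted as separate reads.

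Il2ra encodes CD25, the IL-2 receptor alpha chain, which raises the affinity of the receptor for IL-2 and is itself induced in activated T cells. Its level was 5.30, 5.26 and 5.01 log2 CPM in the untreated libraries and 4.06, 4.07 and 3.87 log2 CPM in the treated ones. The libraries of each group lay close together, and the groups were 0.95 log2 units apart at their nearest. The mean went from 5.19 ± 0.15 to 3.996 ± 0.11 log2 CPM (SD, n = 3 each), so that Il2ra fell by 1.19 ± 0.12 (SE) on the log2 scale, or 2.29-fold (95% interval -1.48 to -0.91, adjusted p 0.000612). This is the smallest adjusted p of the 10 genes. The gene lies on chromosome 2 (11642807 to 11693193, plus strand).

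Il21r encodes the receptor chain specific for IL-21, a cytokine of helper T cells. It stood at 5.40, 5.76 and 5.54 log2 CPM in untreated libraries and at 4.32, 4.68 and 4.21 log2 CPM in treated libraries. Again no treated library reached the lowest untreated one. The mean went from 5.57 ± 0.18 to 4.403 ± 0.25 log2 CPM (SD, n = 3 each), a fall of 2.24-fold, with a log2 fold change of -1.16 ± 0.16 (SE), a 95% interval of -1.52 to -0.80 and an adjusted p of 0.00154. Il21r (chr7, 125603429 to 125633570, plus strand) follows Il4ra (125552120 to 125579474) on the same strand, 24.0 kb further on.

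Il4ra, its neighbour, encodes the alpha chain that binds IL-4 with the gamma chain or another partner. With that other partner, but not with the gamma chain, it also serves IL-13. Its level was 5.07, 5.69 and 5.29 log2 CPM in untreated libraries and 5.68, 5.77 and 5.62 log2 CPM in treated libraries. The treated libraries lay close together and untreated library 2 lay among them, so the groups overlapped. The log2 fold change was 0.34 ± 0.16 (SE), with a 95% interval of -0.02 to 0.70 and an adjusted p of 0.121. Without untreated library 2 the value was 0.51 with an adjusted p of 0.0163, and without untreated library 1 it was 0.20.

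Il2rb and Il2rg encode the signalling chains of the IL-2 receptor, the beta chain also serving IL-15 and the gamma chain all the receptors of the family. Il2rb stood at 5.36, 5.20 and 5.22 log2 CPM in untreated and at 5.04, 5.18 and 5.03 log2 CPM in treated libraries. The groups did not overlap, but treated library 2 and untreated library 2 were only 0.02 apart. The log2 fold change of -0.18 ± 0.10 (SE) had a 95% interval of -0.40 to 0.05 and an adjusted p of 0.192, so a difference was not shown. Il2rg stood at 6.22, 6.31 and 6.34 log2 CPM in untreated and at 6.20, 6.07 and 5.90 log2 CPM in treated libraries. These groups also met closely, at treated library 1 and untreated library 1. The log2 fold change of Il2rg was -0.23 ± 0.10 (SE), with a 95% interval of -0.46 to -0.0028 before adjustment and an adjusted p of 0.10. With libraries weighted by their quality the Il2rg value was -0.28 with an adjusted p of 0.0330, past the threshold. Il2rb lies on chromosome 15 (78479256 to 78495271, minus strand) and Il2rg on the X chromosome (101264378 to 101268255, minus strand), where 728 of its 2387 exonic bases are shared with the gene model Gm20489 on the same strand, so that reads there could be split between them. Gm20489 was itself low, at 1.56 ± 0.42 log2 CPM in untreated and 1.09 ± 0.14 log2 CPM in treated libraries (SD, n = 3 each).

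The kinase genes did not pass the threshold. JAK1 serves the cytokine-specific chains as well as interferon and IL-6 family receptors, and Jak1 (chr4, 101152367 to 101265282, minus strand) was at 7.11, 7.20 and 7.29 log2 CPM in untreated and 7.26, 7.23 and 7.24 log2 CPM in treated libraries. The treated libraries lay inside the range of the untreated ones. The log2 fold change of Jak1 was 0.04 ± 0.08 (SE), and its 95% interval of -0.13 to 0.22 (adjusted p 0.697) was the narrowest of the 10 genes. The sign of this value was not stable, since it was -0.0068 without untreated library 1 and -0.014 with libraries weighted by quality.

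JAK3 is the kinase bound to the gamma chain, and Jak3 (chr8, 71676296 to 71690575, plus strand) was at 2.04, 2.36 and 2.54 log2 CPM in untreated and 1.49, 2.00 and 2.61 log2 CPM in treated libraries. The treated libraries spread more widely than the untreated ones and held both the lowest and the highest value. The log2 fold change was -0.28 ± 0.31 (SE), with a 95% interval of -0.997 to 0.44 and an adjusted p of 0.506. This interval spans a near 2-fold decrease as well as an increase, so a difference was not shown. A single library moved the value, which was -0.0065 without treated library 1 and -0.57 without treated library 3. The 3 treated libraries held an estimated 16, 26 and 46 reads of Jak3, with exact Poisson 95% intervals of 9.15 to 26, 17 to 38.1 and 33.7 to 61.4, and the 3 untreated libraries held 33, 33 and 38. The last 404 of the 5352 exonic bases of Jak3 are shared with Insl3 on the same strand, which was at 1.0 ± 0.06 log2 CPM in untreated and 0.82 ± 0.94 log2 CPM in treated libraries (SD, n = 3 each). They lie at the end of the gene, near which 3′ sequencing collects its reads. Even with strand, reads there cannot be assigned to one gene, and what part this had in the values of Jak3 was not tested.

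STAT5A and STAT5B are near-identical transcription factors encoded by neighbouring genes on chromosome 11 that are read away from each other, with 8.6 kb between them. Stat5a (100859351 to 100885169, plus strand) was at 6.51, 5.93 and 6.10 log2 CPM in untreated and 6.65, 6.60 and 6.74 log2 CPM in treated libraries. The treated libraries were all higher, but untreated library 1 was only 0.09 below the lowest of them. The mean rose from 6.18 ± 0.30 to 6.66 ± 0.07 log2 CPM (SD, n = 3 each), 1.40-fold, with a log2 fold change of 0.48 ± 0.14 (SE), a 95% interval of 0.15 to 0.82 and an adjusted p of 0.0323. This call was close to the threshold. It was lost when any single library other than untreated library 1 was left out, with log2 fold changes of 0.49, 0.51 and 0.45 without treated libraries 1, 2 and 3 and of 0.36 and 0.44 without untreated libraries 2 and 3 (adjusted p from 0.0670 to 0.101). Without untreated library 1 it was 0.65 with an adjusted p of 0.00172.

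The end of Stat5a overlaps that of Stat3, which is read towards it from the other strand. The 72 shared bases (chr11, 100885098 to 100885169) are the last ones of both gene models, the stretch near which 3′ sequencing collects its reads. Stat3 rose from 7.36 ± 0.22 to 8.34 ± 0.05 log2 CPM (SD, n = 3 each). The sources used here do not give the strand setting of the counting. Without strand, reads in those bases cannot be assigned to one gene, and what part this had in the rise of Stat5a was not tested. Stat5b (100780731 to 100850724, minus strand), which shares no bases with Stat3, was at 6.23, 6.17 and 6.19 log2 CPM in untreated and 6.18, 6.45 and 6.46 log2 CPM in treated libraries. Treated library 1 lay among the untreated libraries and the other two above them. The log2 fold change of Stat5b was 0.16 ± 0.10 (SE), with a 95% interval of -0.06 to 0.39 and an adjusted p of 0.220.

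**Figure D2:**
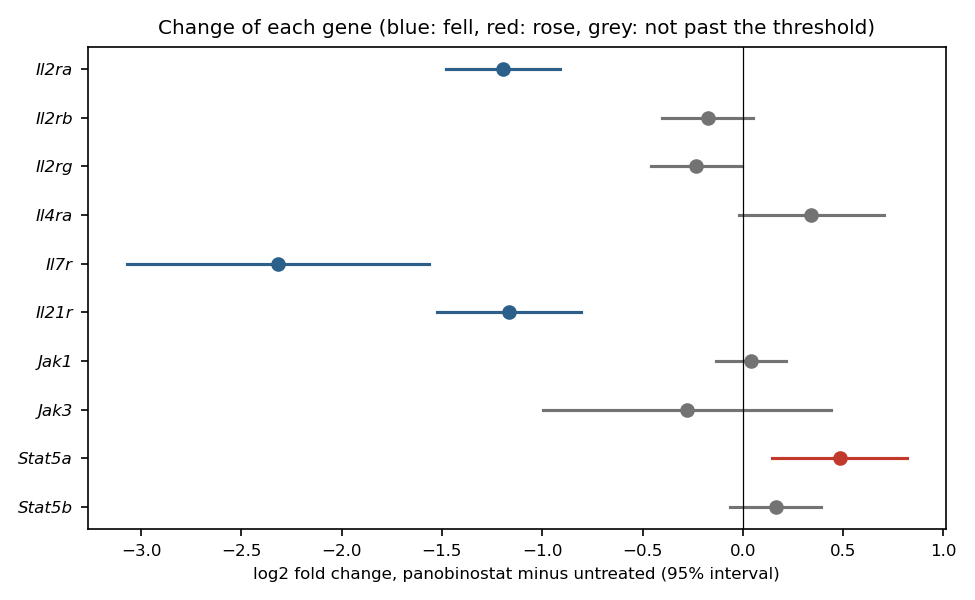
Log2 fold change (panobinostat minus untreated) of the 10 genes from limma, with 95% intervals; blue marks genes that fell, red the one that rose and grey those not past the threshold. The interval of Il7r runs from -3.07 to -1.57 and lies below those of Il2ra and Il21r, and the intervals of Il2rb, Il4ra, Jak1, Jak3 and Stat5b include 0.

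Untreated library 1 did not carry the falls. For Il7r and Il21r it was the lowest untreated library, so leaving it out had to enlarge those falls. For Il2ra it was the highest. Without it the log2 fold changes were -2.60 for Il7r, -1.14 for Il2ra and -1.25 for Il21r, with adjusted p of 0.00113, 0.000993 and 0.00152. The genes that did not pass the threshold remained outside it, with -0.13 for Il2rb, -0.27 for Il2rg (adjusted p 0.0792), -0.42 for Jak3 and 0.18 for Stat5b.

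Markers of cell types moved in the same comparison. Of 13 T cell markers tested 0 rose and 7 fell, where 19.0% of all tested genes fell, and their summed level was 2050 to 2170 CPM in treated and 2765 to 2967 CPM in untreated libraries. Of 9 myeloid markers 4 fell (1057 to 1155 against 1299 to 1472 CPM), and of 5 B cell markers 2 fell (50.9 to 51.6 against 59.7 to 69.0 CPM). Of 6 erythroid markers 3 fell and 1 rose, with 6277 to 6673 CPM in treated and 6671 to 7919 CPM in untreated libraries. Il2ra also marks regulatory T cells, and of 2 markers of those cells tested 1 fell, Ikzf2, with a summed level of 137 to 154 against 189 to 280.0 CPM, while Foxp3, which defines them, was not analysed here. For NK and innate lymphoid cells, 1 of 6 markers was tested and did not pass the threshold (11.1 to 12.9 against 14.0 to 15.3 CPM), and the only stromal marker tested of 6 fell (59.5 to 80.8 against 90.6 to 124 CPM for the 2 measured). The part of these shifts in the lower levels of Il7r, Il2ra and Il21r was not tested.

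Chains of one receptor, paralogs and neighbours were then compared within each library, as the log2 ratio of 2 genes, to ask whether they moved alike. For this, 7 pairs were compared by an exact two-sided permutation test over the 6 libraries, which cannot give a p under 0.1, so no pair could pass 0.05 and the differences are given as a description. Relative to Il2rb, Il2ra went from a log2 ratio of -0.07 ± 0.13 in untreated to -1.09 ± 0.09 in treated libraries (SD, n = 3 each), a difference of -1.02 (exact p 0.1, adjusted over the 7 pairs 0.14). Relative to Il2rg, the other signalling chain of the IL-2 receptor, the difference for Il2ra was -0.96. For Il7r it was -2.09 against Il2rg and -1.12 against Il2ra, and for Il21r it was -1.51 against its neighbour Il4ra. With a pseudocount of 1 the difference of Il7r against Il2ra was -0.56. In these 5 pairs, without a pseudocount, the groups did not overlap and the exact p was 0.1 (adjusted 0.14). For Il7r against Il2ra they nearly met, at -3.15 in treated library 3 and -3.12 in untreated library 1. For the paralogs the ratios overlapped. The log2 ratio of Stat5a to Stat5b was 0.29, -0.24 and -0.10 in untreated and 0.48, 0.15 and 0.28 in treated libraries, a difference of 0.32 (exact p 0.3, adjusted 0.35), and that of Jak1 to Jak3 differed by 0.32 (exact p 0.5, adjusted 0.5). The difference for the STAT5 genes was 0.21 without untreated library 2, and that for the kinase genes was 0.04 without treated library 1 and 0.61 without treated library 3.

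**Figure D3:**
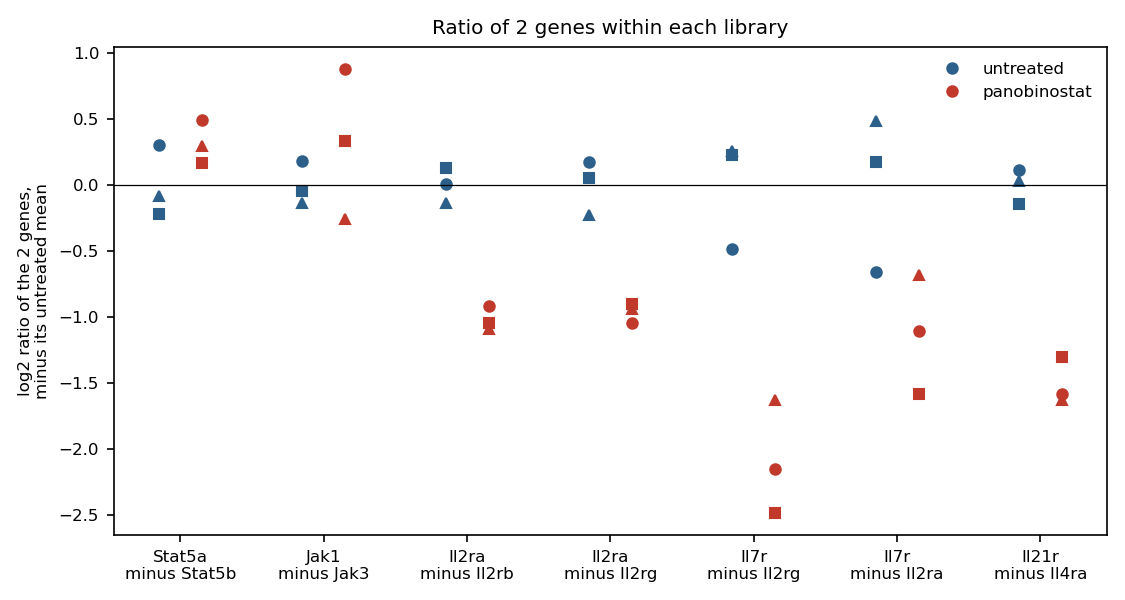
Log2 ratio of 2 genes within each library, minus the mean of that ratio in the untreated libraries, for 7 pairs; blue points are untreated and red points panobinostat-treated libraries, with circles, squares and triangles for libraries 1, 2 and 3. In the 5 pairs that set Il2ra, Il7r or Il21r against another receptor gene all treated libraries lie below all untreated ones, while Stat5a to Stat5b and Jak1 to Jak3 overlap. For Il7r against Il2ra the groups nearly meet.

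The rest of the pathway was described through 7 lists of genes, each by its counts and, for all but 1, its median. These are to be read beside the 19.0% of all tested genes that fell, the 19.2% that rose and their median of -0.0052. The first held the remaining private chains and the ligands of the gamma chain family. That first list also took in genes of TSLP and IL-13 signalling, which does not use the gamma chain. Of its 11 genes 4 were tested, of which 2 fell and 0 rose, with a median log2 fold change of -0.92. Crlf2, the chain that joins the IL-7 receptor alpha chain to bind TSLP, fell from 5.11 ± 0.07 to 3.89 ± 0.35 log2 CPM (SD, n = 3 each; log2 fold change -1.21 ± 0.17 SE, adjusted p 0.00202), and so both chains of the TSLP receptor fell. Il9r, the chain specific for IL-9, fell from 4.13 ± 0.17 to 3.36 ± 0.34 log2 CPM (-0.77 ± 0.20 SE, adjusted p 0.0178). Il2 itself was at 2.04, 2.57 and 4.24 log2 CPM in untreated and 1.41, 2.91 and 1.28 log2 CPM in treated libraries, an overlap, with an adjusted p of 0.209. Il15ra, the high-affinity chain for IL-15, had a log2 fold change of 0.34 ± 0.33 (SE, adjusted p 0.439). The count of genes that fell was 1 without untreated library 2. The other 7 genes, all of them ligands, were not analysed here.

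The remaining JAK and STAT genes did not move one way. Of 7 genes 2 rose, 1 fell and 4 did not pass. Stat3, the factor below IL-6, IL-10 and IL-21, rose by 0.98 ± 0.11 (SE) on the log2 scale (adjusted p 0.000872), and Stat2, which acts in type I interferon signalling, by 0.68 ± 0.20 (adjusted p 0.0304). Stat6, the factor below the IL-4 receptor, fell by 0.38 ± 0.12 (adjusted p 0.0411), and the count of genes that fell was 0 without treated library 1, 2 or 3 or untreated library 1 or 2. The count of genes that rose was 1 without treated library 1, 2 or 3 or untreated library 1 or 3. Among the genes that did not pass, Jak2 had -0.24 (adjusted p 0.0577).

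Among 24 receptor genes for other cytokines that also signal through JAKs, 14 were tested, of which 4 fell, 1 rose and 9 did not pass, with a median of -0.16. Il12rb2 and Il12rb1, the chains of the IL-12 receptor, fell by 1.12 ± 0.13 and 0.84 ± 0.24 (SE) on the log2 scale (adjusted p 0.000884 and 0.0254). Csf2rb, the shared chain of the IL-3, IL-5 and GM-CSF receptors, fell by 1.20 ± 0.20 (adjusted p 0.00322), and Ifnar2, a chain of the type I interferon receptor, by 0.47 ± 0.09 (adjusted p 0.00675). The gene that rose was Il6st, the signalling chain shared by the IL-6 family, by 0.33 ± 0.10 (adjusted p 0.0326). This call was lost without treated library 1 or 3 or untreated library 2 or 3, where the count of genes that rose was 0.

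All 21 genes listed as brakes on JAK and STAT signalling were tested, of which 5 rose, 6 fell and 10 did not pass, with a median of 0.0040. Pias4, an inhibitor of STAT proteins and a SUMO ligase, rose by 1.27 ± 0.15 (SE) on the log2 scale (adjusted p 0.00104). Phosphatases moved in opposite directions. Ptpn1 rose by 0.54 ± 0.08 (adjusted p 0.00257), while Ptpn2, which acts on JAK1, JAK3 and STAT5, fell by 0.85 ± 0.13 (adjusted p 0.00249), and Ptprc, which encodes CD45, fell by 0.41 ± 0.09 (adjusted p 0.0108). Cbl, a ubiquitin ligase, fell by 0.55 ± 0.10 (adjusted p 0.00390) and Socs7, of the suppressor of cytokine signalling family, rose by 0.67 ± 0.14 (adjusted p 0.00867).

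Genes reported as STAT5 targets in lymphocytes also went both ways. Of 23 such genes 17 were tested, of which 6 fell, 3 rose and 8 did not pass, with a median of -0.21. Id2, an inhibitor of E proteins, was at 7.61, 7.69 and 7.61 log2 CPM in untreated and 6.09, 6.22 and 5.98 log2 CPM in treated libraries. It fell 2.91-fold (-1.54 ± 0.09 SE, adjusted p 0.000135), the smallest adjusted p of any list. The survival genes Bcl2 and Bcl2l1 fell by 0.58 ± 0.10 and 0.84 ± 0.15 on the log2 scale (adjusted p 0.00413 and 0.00492), while Mcl1, of the same family, had -0.06 ± 0.09 (adjusted p 0.608). Myc, a driver of growth, went from 1.43 ± 0.25 to -0.71 ± 0.84 log2 CPM (SD, n = 3 each), so that it fell by 2.13 ± 0.48 (SE, adjusted p 0.0107) at a low level. Among the PIM kinase genes, Pim3 rose by 0.76 ± 0.10 and Pim2 by 1.62 ± 0.31 (adjusted p 0.00173 and 0.00559), while Pim1 had 0.20 ± 0.12 (adjusted p 0.217). Pim2 was at a low level, 1.31 ± 0.59 log2 CPM in untreated and 2.925 ± 0.12 log2 CPM in treated libraries (SD, n = 3 each). The suppressor genes that STAT5 is known to induce at once, which this list shares with the brakes above, differed as well. Cish was at 3.38, 3.53 and 3.27 log2 CPM in untreated and 2.80, 2.16 and 2.77 log2 CPM in treated libraries and fell (-0.82 ± 0.21 SE, adjusted p 0.0182). Socs2 was at 1.31, 1.57 and 1.24 log2 CPM in untreated and 2.69, 1.83 and 2.21 log2 CPM in treated libraries and rose (0.87 ± 0.28 SE, adjusted p 0.0394). Socs1 overlapped between the groups, with untreated library 1 at 5.90 log2 CPM above all treated libraries and untreated libraries 2 and 3 at 4.50 and 4.85 log2 CPM below them (0.59 ± 0.32 SE, adjusted p 0.175).

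Of 31 genes for adaptors and kinases that carry the signal of the IL-2 receptor to the RAS and PI3 kinase pathways, 30 were tested, of which 8 fell, 7 rose and 15 did not pass, with a median of 0.07. Lck, a kinase of the T cell receptor that also binds the IL-2 receptor beta chain, fell by 0.82 ± 0.08 (SE) on the log2 scale (adjusted p 0.000425), and Shc1, the adaptor that links that chain to RAS, fell by 0.76 ± 0.09 (adjusted p 0.00120). Sos2, an exchange factor for RAS, fell by 0.62 ± 0.11 (adjusted p 0.00414). In contrast, Map2k1 (MEK1) rose by 1.35 ± 0.19 (adjusted p 0.00194), Pdpk1, the kinase that activates AKT, by 0.61 ± 0.08 (adjusted p 0.00140) and Pik3r2, a regulatory subunit of PI3 kinase, by 0.86 ± 0.12 (adjusted p 0.00196). The count of genes that rose was 4 without treated library 2 and 3 without treated library 3 or untreated library 3.

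The last list held 26 transcription factor genes reported to act on Il7r or Il2ra, and all were tested. Of these 11 fell, 5 rose and 10 did not pass, with a median of -0.24. Rela, a subunit of NF-kappa B, stood at 7.30, 7.32 and 7.54 log2 CPM in untreated and 6.53, 6.55 and 6.43 log2 CPM in treated libraries and fell 1.84-fold (-0.88 ± 0.09 SE, adjusted p 0.000622). Gfi1, a repressor of Il7r, was at 6.33, 5.79 and 6.12 log2 CPM in untreated and 4.82, 4.76 and 4.89 log2 CPM in treated libraries and fell 2.39-fold (-1.26 ± 0.14 SE, adjusted p 0.000808). Elf1, an ETS factor, fell by 0.87 ± 0.11 on the log2 scale (adjusted p 0.00110), Nr3c1, the glucocorticoid receptor and an activator of Il7r, by 0.66 ± 0.09 (adjusted p 0.00185), Runx3 by 0.64 ± 0.10 (adjusted p 0.00234) and Ikzf1 by 0.59 ± 0.09 (adjusted p 0.00271). A known activator and a known repressor of Il7r are thus both among the genes that fell. The 5 genes that rose were Nfatc2, by 1.96 ± 0.32 (adjusted p 0.00330), Foxo1, an activator of Il7r, by 0.33 ± 0.09 (adjusted p 0.0190), Notch1 by 0.34 ± 0.10 (adjusted p 0.0272), Foxp1, which opposes Foxo1 at Il7r, by 0.22 ± 0.07 (adjusted p 0.0355) and Klf2 by 0.51 ± 0.17 (adjusted p 0.0489). That count was 2 without treated library 1 or 3 or untreated library 2 and 1 without treated library 2. Nfatc2 was at a low level, 0.38 ± 0.32 log2 CPM in untreated and 2.35 ± 0.45 log2 CPM in treated libraries (SD, n = 3 each). Whether any of these factors acts at the windows printed above was not tested.

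**Figure D4:**
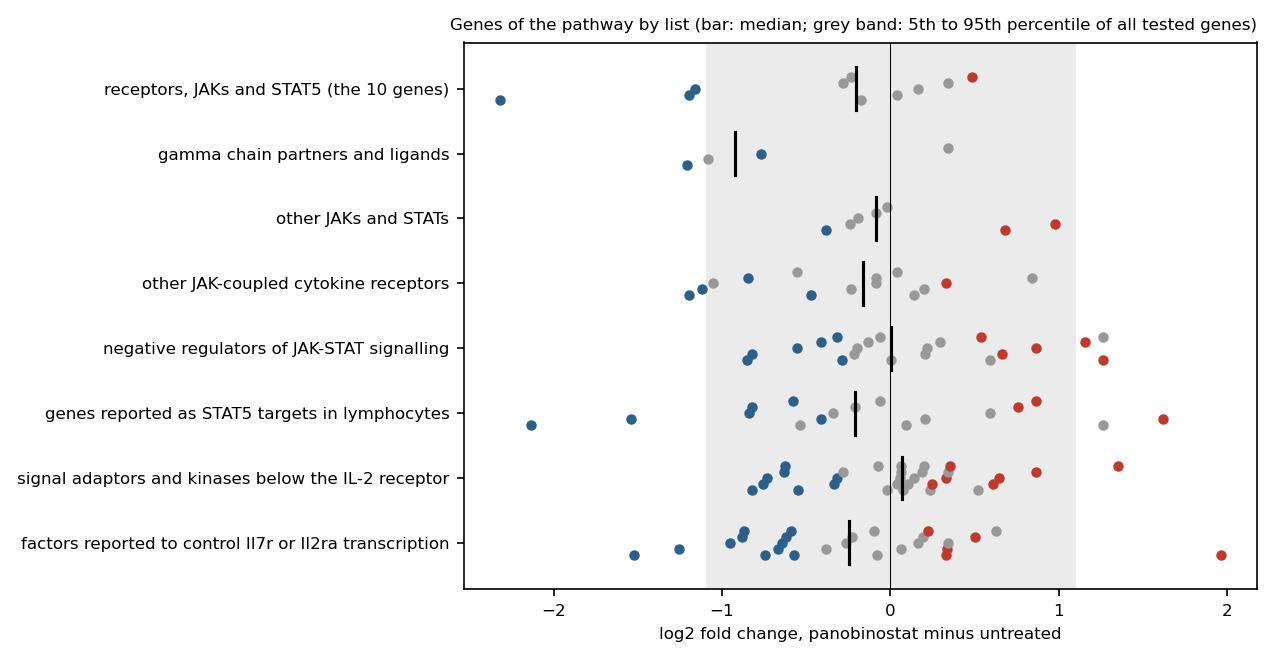
Log2 fold change (panobinostat minus untreated) of every tested gene of the 10 genes and of the 7 lists; each point is 1 gene, blue where it fell, red where it rose and grey where it did not pass the threshold, and the black bar is the median. The grey band spans the 5th to 95th percentile of all tested genes, -1.09 to 1.10. Genes of most lists lie on both sides of 0, and Il7r at -2.32 is the lowest point.

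Profiles most like 3 of the receptor genes were sought among the tested genes at or above the median level of 4.16 log2 CPM, leaving out predicted genes and the gene itself (5858 genes for Il7r and 5857 for the others), by the root mean square difference of log2 profiles over the 6 libraries, each centred on its own mean. For Il2ra the nearest were Ripk1, a kinase of death receptor signalling, at a difference of 0.05 log2 units, the GTPase gene Gimap9 at 0.07 and Crebbp, a histone acetyltransferase, at 0.08, followed by Hemgn and Pon2. For Il2rg they were Cyba, Ddx56, Cars, Tcp1 and Tbl1x, at 0.04 to 0.05, none of which passed the threshold. For Il7r the match was looser, with Ptpro, a receptor tyrosine phosphatase, at 0.30, Sh2d2a, a T cell adaptor, at 0.32 and Ramp3 and Mlst8 at 0.33, followed by Apitd1 at 0.35. Il7r itself lay well below the level set for these genes, and the part of its counting error in the looser match was not tested. The 5 genes nearest to Il7r fell by between 1.84 and 2.59 on the log2 scale. With 6 libraries in 2 groups such profiles mostly restate the size of the difference between the groups.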

How the data were processed

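The authors deposited 1 table of log2 values with a gene symbol in each of 13185 rows and 1 column for each of the 6 libraries. The submitters' processing notes name the build mm10, limma, Subread 1.5.0 with featureCounts, HISAT2 2.1.0 and cutadapt 1.9, in no stated order, and neither the annotation nor the strand setting was stated. That the values are log2 CPM, quantile normalized, was inferred. Their powers of 2 summed to 994114 to 994182 per library, and the sorted values lay within 0.05 of their mean over libraries in 87.6% of rows, so a shift of all genes one way could not be seen. Columns were matched to samples by name and groups taken from the treatment label. The sample titles carry replicate number 1 throughout, and libraries are numbered 1 to 3 as in the table.

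Genes with a mean of at least 0 were fitted with limma 3.58.1 in R 4.3.3 (lmFit, then eBayes with trend, no pseudocount), which left 12554. Pairs of genes were compared by exact permutation tests in scipy 1.17.1. One step between distinct low values was taken as 1 read, over 200 steps. Tables were handled with pandas 2.3.3 in Python 3.11.15 and figures drawn with matplotlib 3.10.9. The script was tested on simulated data for this comparison with 12554 genes. It called 44 of 100 genes with a true log2 fold change of 1 in size and 4 of 100 with one of 0.5. Of 12354 genes with none it called 2. Far fewer genes were changed there than were called in the real data (2416 rose and 2390 fell). Fewer changed genes make the adjusted threshold stricter, so these shares do not tell how many real changes of those sizes were found.

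The 10 genes and the lists were chosen with earlier results of these data known. All 10 are named, with at most 6 genes past the threshold from each list, smallest adjusted p first, any others that a small count or a comparison with a relative needed, which were chosen after their values were seen, and the 5 profiles nearest to Il7r, Il2ra and Il2rg. One gene of the lists is not reported here. Gene positions are from GENCODE M21 and promoter windows from RefSeq (GRCm38.p6). Alternatives were no filter or a stricter one (mean of at least 2), eBayes without trend or robust, sample weights, trimmed mean scaling, a pseudocount of 1, the replicate number as a block and each library left out.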

Additional observations from a re-analysis of the deposited data

How the results depend on the processing

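Il2ra and Il21r passed the threshold in all 14 alternatives run and Il7r in the 13 in which it was tested, with log2 fold changes of -1.28 to -1.11, -1.30 to -1.07 and -2.60 to -1.71. Without the mean-variance trend 0 of the 10 genes rose, since Stat5a at 0.48 had an adjusted p of 0.0696. With sample weights 2 rose, Stat5a at 0.55 and Il4ra at 0.35. Under the same setting 4 fell, with Il2rg at -0.28 now past the threshold, and Jak1 was at -0.014. With each library left out in turn, the number of the 10 genes that rose ran from 0 to 1, Stat5a from 0.36 to 0.65, Il4ra from 0.20 to 0.51 and Jak1 from -0.0068 to 0.087. The number that fell was 3 with each library left out, and 2 under the stricter filter, which left Il7r untested. With the replicate number as a block 1 of the 10 genes rose and 3 fell (Stat5a 0.48, adjusted p 0.0363), and over all genes 2079 rose and 2069 fell. Libraries that share a number showed no sign of deviating together (correlations of -0.04, 0.10 and -0.01). With 3 libraries in each group these values cannot settle whether the numbers mark pairs. Under that block the lists of other receptors, of factors acting on Il7r or Il2ra, and of other JAKs and STATs had 0 and 3 genes that rose and 0 that fell. Differences between pairs of genes were run only with a pseudocount of 1 and with each library left out, and kept their direction in 49 of 49 values. Where the groups of a pair did not overlap, leaving out a library could not reverse the direction, so those values are no test of it. Sizes did change. For Il7r against Il2ra the difference was -0.56 with a pseudocount of 1, and for Jak1 against Jak3 it ran from 0.04 to 0.61 with each library left out. Counts in the lists moved by over 1.5 times in 31 of 196. Low read counts limit Il7r and Jak3 most. Jak3 is also limited by the spread of its treated libraries and by the bases shared with Insl3, and Stat5a by the unstated strand setting. The causes of the differences between settings were not tested.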
